A study of Mus musculus with 6 samples.

Results

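The interferon response genes described here are 39 genes fixed by symbol, 32 of them targets of type I interferon and 7 of them targets of interferon gamma (Gbp2, Gbp3, Gbp5, Gbp7, Igtp, Irgm1 and Iigp1). Of these, 37 were matched among the 32285 genes listed in the libraries, 30 of type I and all 7 of interferon gamma. Mx1 and Mx2 were not analysed here. The 39 genes were fixed by name and not by a measured value of this comparison, but with earlier results of these data known. The study used KPC mice, a genetic model of pancreatic cancer whose alleles include p53LSL.R172H/+ and Pdx1-Cretg/+, so that Cre recombinase driven by the Pdx1 promoter switches on mutant p53 in cells of the pancreatic lineage. All 6 mice shared this genotype. The 3 vehicle mice (vehicle 1 to 3) received corn oil and water, and the 3 treated mice (treated 1 to 3) received trametinib, a MEK inhibitor, at 1 mg/kg and hydroxychloroquine, a drug that blocks lysosomal acidification and autophagy, at 40 mg/kg, both by mouth. Mice entered the study when ultrasound showed a tumour of 4 to 7 mm, and pancreatic tumour tissue was collected 24 h after treatment for droplet single-cell RNA sequencing with 1 library per mouse. The age of the mice was not given in the sources used here.

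Interferons are secreted when cells sense foreign or misplaced nucleic acid or when lymphocytes are activated. Type I interferon acts through the receptor Ifnar1 and Ifnar2 on almost every cell and activates a factor that contains Stat2 and Irf9 and binds the interferon-stimulated response element of its target promoters. Interferon gamma, made mainly by T and NK cells, acts through Ifngr1 and Ifngr2 and leads to binding at the gamma-activated site. The type I targets include antiviral effectors (the Ifit, Oas and Ifitm families, Rsad2, Isg15), sensors of RNA and DNA (Ddx58, Ifih1, Dhx58, Zbp1) and the factors that amplify the response (Irf7, Irf9, Stat2). The interferon gamma targets named here are GTPases that attack vacuoles of intracellular pathogens (the guanylate-binding proteins Gbp2, Gbp3, Gbp5 and Gbp7, and the immunity-related GTPases Igtp, Irgm1 and Iigp1). Many of these genes respond to both kinds of interferon.

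Both kinds of element can be read in the promoters of the members. RefSeq (GRCm38.p6) gave a promoter of 250 bases before to 50 bases after the transcript start for 28 of the 37 matched members, 22 of type I and 6 of interferon gamma. The response element was searched on both strands as GAAA, any 2 bases, then GAAA, and the gamma-activated site as TTCNNNGAA. The first was present in the promoters of 12 of 22 type I members (54.5%) and of all 6 interferon gamma members, against 3.99% of the promoters of all 27025 genes in the table. The second was present in 6 of 22 (27.3%) and in 3 of 6 (50%), against 9.55% of all genes. The promoters printed here were chosen to show how the elements sit in members whose values are described later. Isg15 and Rsad2 hold the response element alone, and Bst2, Igtp and Gbp7 hold both. Each run is the 150 bases before the transcript start, 5′ to 3′ on the strand of the gene, with the matched letters in capitals. They lie at chr4:156200819-156200968 on the minus strand (Isg15), chr12:26456453-26456602 minus (Rsad2), chr8:71537473-71537622 minus (Bst2), chr11:58199406-58199555 plus (Igtp) and chr3:142530186-142530335 plus (Gbp7).
Isg15: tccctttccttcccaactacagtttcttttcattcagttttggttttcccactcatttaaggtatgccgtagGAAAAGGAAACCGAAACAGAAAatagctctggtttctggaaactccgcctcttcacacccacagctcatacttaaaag
Rsad2: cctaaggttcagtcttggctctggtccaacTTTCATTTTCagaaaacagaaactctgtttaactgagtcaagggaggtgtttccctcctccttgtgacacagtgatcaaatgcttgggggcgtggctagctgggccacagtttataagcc
Bst2: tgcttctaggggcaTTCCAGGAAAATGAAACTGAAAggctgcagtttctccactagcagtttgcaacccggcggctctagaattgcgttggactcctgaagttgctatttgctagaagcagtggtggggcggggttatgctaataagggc
Igtp: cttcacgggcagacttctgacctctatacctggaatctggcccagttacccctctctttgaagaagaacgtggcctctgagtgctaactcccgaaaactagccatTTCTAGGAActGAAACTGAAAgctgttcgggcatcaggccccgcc
Gbp7: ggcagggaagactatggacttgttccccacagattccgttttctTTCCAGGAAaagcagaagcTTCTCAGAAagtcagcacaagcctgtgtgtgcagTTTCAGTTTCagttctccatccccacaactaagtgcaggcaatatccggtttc
In Isg15 overlapping response elements form 1 capital run. In Bst2 the response elements overlap the gamma-activated site, so the run of capitals holds both. A match to these letters is a description of the sequence and not a measured binding site.

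The 6 libraries held 44819 barcodes, of which 37002 were kept as single cells. Library totals ran from 22996012 to 126645602 UMIs, with vehicle 1 the smallest (2144 kept cells, against 3941 to 10304 in the others). The median depth of a kept cell was 2995.5 to 4701 UMIs in vehicle mice and 8384 to 11182 UMIs in treated mice. Cells were grouped by clustering and the clusters named from marker genes, none of which is a member, so each class name below stands for cells like that type. The classes tested were tumour and ductal epithelial cells, fibroblasts, endothelial cells, macrophages with monocytes, neutrophils, T and NK lymphocytes, B lymphocytes and conventional dendritic cells, and 5.23% of kept cells stayed without a name (0.98% to 17.7% per library). Between 0 and 24 barcodes were shared by any 2 libraries. The leading 7 bases of a barcode in vehicle 1 recurred in another library for 25.7% to 25.9% of its barcodes, against 99.8% to 100% between the other libraries, so vehicle 1 stood apart in its barcodes as well as its size. Treated 1 and treated 2 were more alike than any other pair of mice in 5 of 7 classes, with an SD of the log2 ratio over genes of 0.22 in tumour cells against 0.66 for the next closest pair, but they differed beyond counting noise and were kept as separate mice. Levels are given as CPM, counts per 1000000 UMIs, the UMIs of a gene relative to all UMIs of its class in 1 mouse. Since RNA is summed over cells, fewer cells with a transcript and less transcript per cell cannot be told apart in these sums.

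Most members were lowest in tumour cells and highest in neutrophils or endothelial cells in the vehicle mice. By mean CPM over the 3 vehicle mice, the highest class was neutrophils for 15 of 37 members, endothelial cells for 9, T and NK lymphocytes for 5, conventional dendritic cells for 4, macrophages for 3 and B lymphocytes for 1. The lowest class was tumour cells for 21 members and B lymphocytes for 10. The 15 members highest in neutrophils were Ifit1, Ifit3, Isg15, Isg20, Irf1, Irf7, Oas2, Oas3, Oasl2, Rsad2, Rtp4, Trim30a, Cmpk2, Gbp2 and Gbp5. Endothelial cells held the highest level of Bst2, Ddx58, Ifi44, Ifit2, Ifitm3, Parp14, Xaf1, Irgm1 and Iigp1. T and NK lymphocytes held that of Gbp7, Igtp, Ifi27l2a, Ifi47 and Zbp1. Conventional dendritic cells held that of Ifih1, Irf9, Stat2 and Usp18, macrophages that of Dhx58, Gbp3 and Oas1a, and B lymphocytes that of Ly6e.

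The spread between mice was as large as most of these steps. Isg15, a ubiquitin-like protein that is attached to other proteins, averaged 205 CPM ± 183 (SD, n = 3) in neutrophils and 77.3 ± 98.4 in endothelial cells of vehicle mice. Oasl2, of the oligoadenylate synthetase family, averaged 160 CPM ± 160 in neutrophils and 23.7 ± 27.0 in endothelial cells. Rsad2 (viperin), an enzyme that makes a chain-terminating nucleotide, averaged 61.8 CPM ± 60.6 in neutrophils and 11.3 ± 8.53 in macrophages. In each of these the vehicle mice of the higher class overlapped those of the next. The highest and the second class did not overlap for 2 of 37 members. Ly6e, a surface protein that restricts virus entry, averaged 1555 CPM ± 194 in B lymphocytes against 855 ± 256 in endothelial cells, and Oas1a averaged 13.02 ± 8.03 in macrophages against 4.34 ± 0.57 in neutrophils. The 7 interferon gamma members had their highest level in 4 different classes. Iigp1 averaged 82.0 CPM ± 90.5 in endothelial cells and 12.4 ± 12.6 in fibroblasts, the next class. Igtp averaged 41.2 ± 13.4 in T and NK lymphocytes and 20.8 ± 16.5 in neutrophils. Gbp7 averaged 91.1 ± 47.4 in T and NK lymphocytes and 73.8 ± 25.3 in macrophages. The highest class was the same in treated as in vehicle mice for 26 of 37 members.

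**Figure D1:**
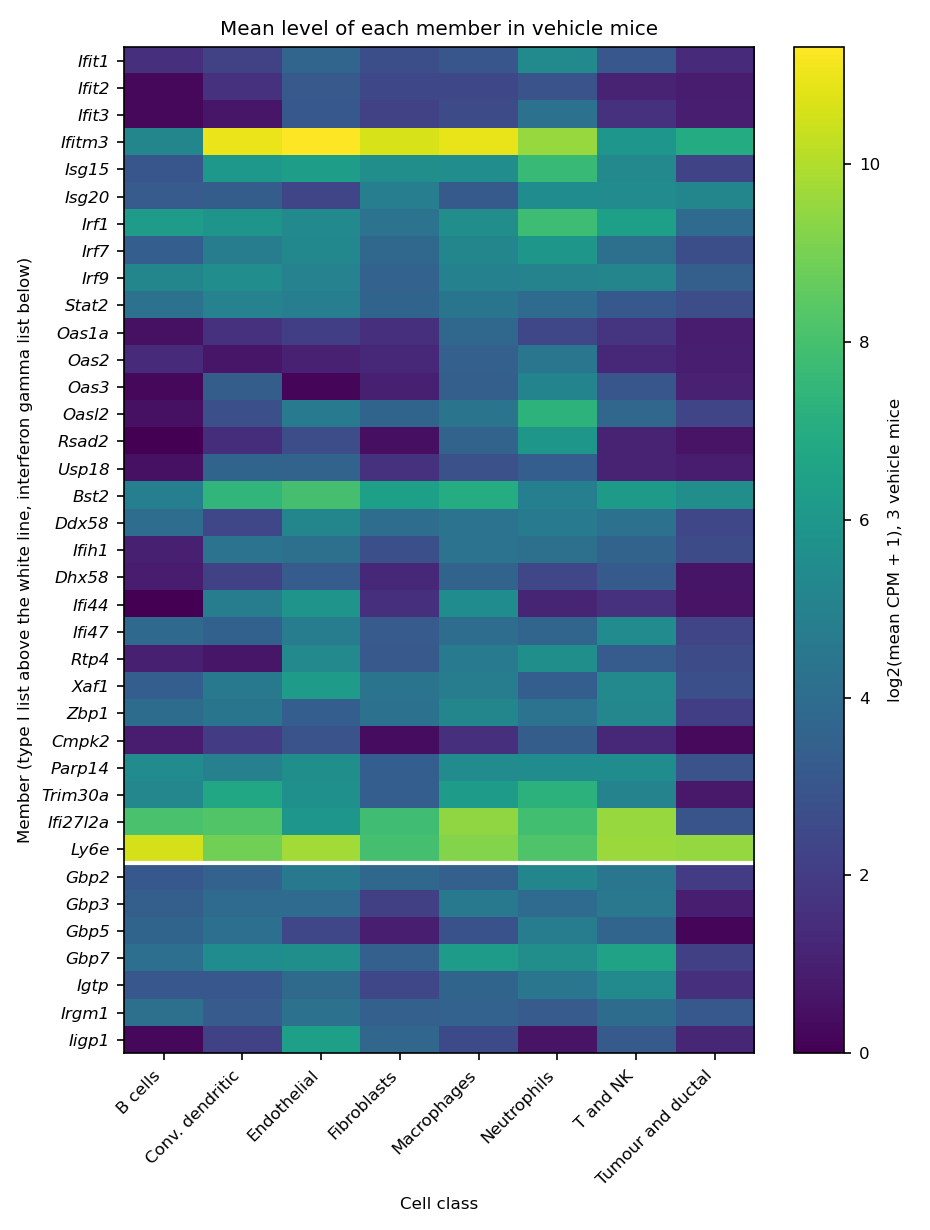
Levels of the 37 matched members (rows) in the 8 tested cell classes (columns) of the vehicle mice, with colour for log2(mean CPM + 1) over 3 mice and a white line between type I members above and interferon gamma members under it. Tumour cells hold the lowest value for 21 of the 37 members, and neutrophils the highest for 15.

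The comparison of treated with vehicle mice asks whether the drug pair changed the interferon response within a cell class by 24 h. No member rose or fell in any class at an adjusted p under 0.05 by edgeR's quasi-likelihood test with Benjamini-Hochberg adjustment over all genes. In macrophages all 37 members were tested and 0 were called by edgeR, as were 0.0% of the 11534 genes tested. At an unadjusted p under 0.05 there were 3 of 37 members in macrophages (10.6% of all genes), 2 of 36 in tumour cells (11.2%), 4 of 32 in fibroblasts (15.6%) and 2 of 33 in endothelial cells (19.7%). There were 0 of 33 in neutrophils (5.28%), 4 of 17 in T and NK lymphocytes (3.82%), 3 of 8 in conventional dendritic cells (7.54%) and 0 of 2 in B lymphocytes (2.84%). The share of all genes called by edgeR was 0.0% in tumour cells, fibroblasts, neutrophils, conventional dendritic cells and B lymphocytes, 1.11% in endothelial cells and 0.139% in T and NK lymphocytes. DESeq2 called Ly6e in macrophages (2.60% of all genes called), Bst2 in fibroblasts (2.48%) and no other member in any class. Its share of all genes called was 2.42% in tumour cells, 1.95% in endothelial cells, 0.237% in T and NK lymphocytes, 0.103% in conventional dendritic cells, 0.0517% in B lymphocytes and 0.0259% in neutrophils. The precision differed by class. The median half-width of the 95% interval of a member's log2 fold change was 0.80 in T and NK lymphocytes, 0.83 in fibroblasts, 1.22 in endothelial cells, 1.23 in macrophages, 1.52 in neutrophils and 2.15 in tumour cells. Members that did not pass the filter on low counts numbered 35 in B lymphocytes, 29 in conventional dendritic cells, 20 in T and NK lymphocytes, 5 in fibroblasts, 4 each in endothelial cells and neutrophils, 1 in tumour cells and 0 in macrophages.

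For most members the range over the 3 vehicle mice, in log2(CPM + 1), exceeded the size of the fitted log2 fold change. This was so for 34 of 37 members in macrophages. The same held for 33 of 33 in endothelial cells, 33 of 33 in neutrophils, 29 of 32 in fibroblasts, 25 of 36 in tumour cells and 13 of 17 in T and NK lymphocytes. A range of 3 mice is another measure than a difference between groups. The share of all genes for which this held was not computed, so these counts are a description. The mice also kept their order over many members. The mean over the 30 type I members in macrophages, on the log2(CPM + 1) scale, was 3.73, 5.48 and 4.57 in vehicle 1 to 3 and 5.05, 5.22 and 3.37 in treated 1 to 3. Vehicle 2 was thus the highest and treated 3 the lowest, with the groups overlapping. In neutrophils the same mean was 3.59, 6.13 and 5.36 in vehicle mice and 5.29, 5.94 and 4.26 in treated mice, again with vehicle 2 at the top. In endothelial cells it was 4.09, 5.95 and 4.15 against 5.20, 4.65 and 4.55. Vehicle 2 was the highest mouse for 25 of 33 tested members in endothelial cells, 21 of 37 in macrophages and 18 of 33 in neutrophils. Vehicle 1 was the lowest mouse for 24 of 33 members in neutrophils. Its neutrophils held 2335915 UMIs, against 459365 to 2804997 in the other mice. The deepest 5% of its neutrophils held 40.3% of these UMIs, against 11.0% to 18.7% in the other mice. The part of these few deep cells in its values was not tested.

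**Figure D2:**
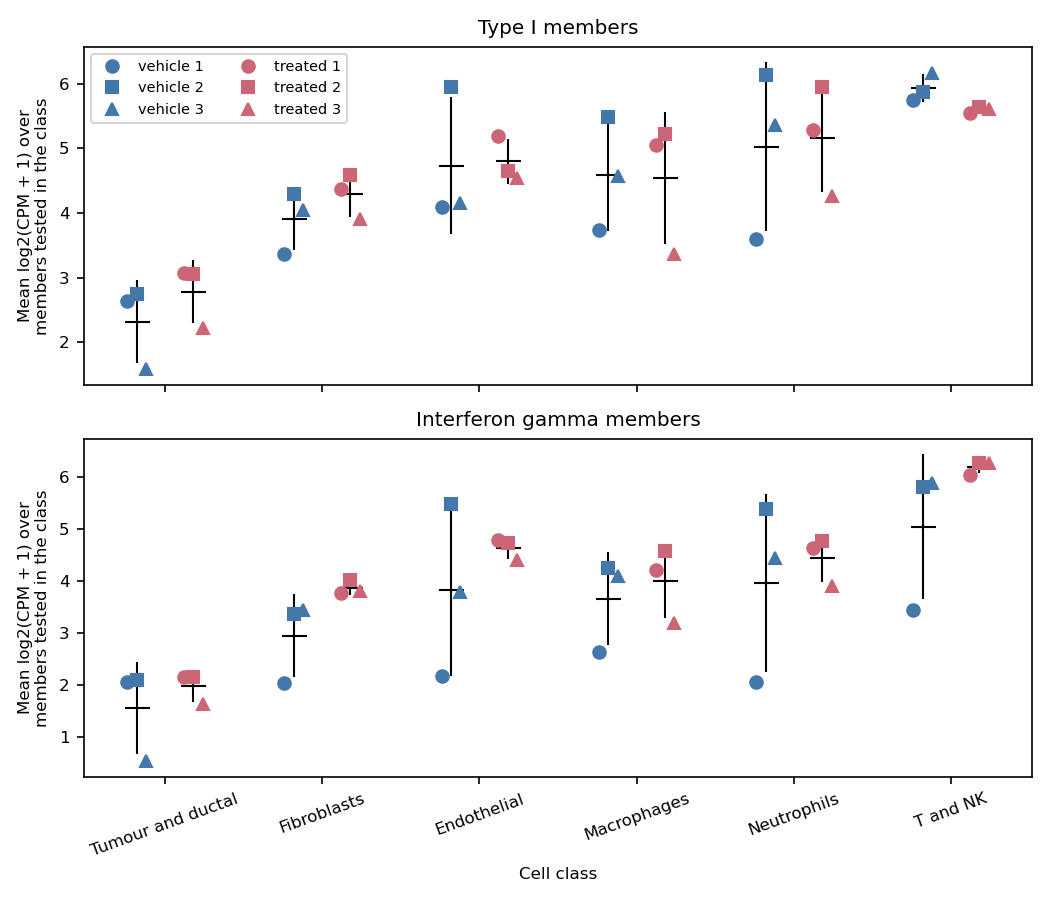
Mean log2(CPM + 1) over the type I members and over the interferon gamma members tested in each of 6 cell classes; each point is 1 mouse (circle, square and triangle for replicates 1, 2 and 3), and black marks show the group mean and SD. The type I points of the treated mice lie within the range of the vehicle mice in endothelial cells and neutrophils, whereas the interferon gamma points of fibroblasts and of T and NK lymphocytes lie higher in all 3 treated mice.

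Type I and interferon gamma members had different medians in several classes. In fibroblasts the median log2 fold change of treated over vehicle was 0.57 over the 6 tested interferon gamma members and 0.09 over the 26 tested type I members, with 0.003 over all genes tested. In T and NK lymphocytes it was 0.58 over 3 interferon gamma members and −0.35 over 14 type I members, with 0.012 over all genes. In endothelial cells it was −0.15 over 7 and −0.53 over 26. In neutrophils it was 0.02 over 6 and −0.13 over 27, and in macrophages 0.04 over 7 and −0.04 over 30. Tumour cells had the other order, with −0.02 over 6 interferon gamma and 0.44 over 30 type I members. These are medians over genes that passed the filter, and no test was made of the difference between the lists. Fold changes above 0 numbered 6 of 6 interferon gamma members in fibroblasts, 3 of 3 in T and NK lymphocytes, 4 of 7 in macrophages, 3 of 6 in neutrophils, 3 of 6 in tumour cells and 2 of 7 in endothelial cells. Of type I members they numbered 17 of 26, 5 of 14, 14 of 30, 11 of 27, 17 of 30 and 6 of 26 in the same classes. Without vehicle 2 the type I median of endothelial cells was 0.60. Irf1 and Ifi47 also respond to interferon gamma. With both counted among the interferon gamma members, that median was 0.13 over 5 members in T and NK lymphocytes, 4 of them above 0, and 0.57 over 8 in fibroblasts.

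The interferon gamma mean of fibroblasts, on the log2(CPM + 1) scale, was 2.02, 3.36 and 3.44 in vehicle 1 to 3 and 3.76, 4.02 and 3.80 in treated 1 to 3. All treated mice lay above all vehicle mice, with or without vehicle 1. In T and NK lymphocytes it was 3.44, 5.80 and 5.88 against 6.04, 6.27 and 6.27, again without overlap, with vehicle 1 far below the others. Vehicle 2 and 3 alone also lay under every treated mouse with this list of 3 tested members. With Irf1 and Ifi47 added, the T and NK means were 4.237, 5.878 and 5.985 against 5.881, 6.143 and 6.064. Treated 1 then lay under vehicle 3, so the groups overlapped, whereas those of fibroblasts stayed apart with the same addition. The type I mean of T and NK lymphocytes was 5.75, 5.88 and 6.17 against 5.55, 5.65 and 5.60, so there the treated mice lay below. In macrophages the interferon gamma mean was 2.62, 4.24 and 4.09 against 4.21, 4.57 and 3.19, with overlap. In tumour cells it was 2.05, 2.09 and 0.52 against 2.14, 2.14 and 1.62. Group means of these per-mouse values weigh each mouse equally and can differ in sign from the median of the fitted fold changes. In endothelial cells the interferon gamma mean was 4.63 ± 0.21 in treated and 3.81 ± 1.65 in vehicle mice and the type I mean 4.80 ± 0.35 and 4.73 ± 1.06, although both medians were under 0. The same held for the type I mean of neutrophils (5.16 ± 0.85 and 5.03 ± 1.30) and the interferon gamma mean of tumour cells (1.97 ± 0.30 and 1.55 ± 0.89).

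In fibroblasts, which build the dense stroma of these tumours, all 3 treated mice lay above all 3 vehicle mice for 8 of 32 members. That share equals the 25.0% of all genes tested that did not overlap in either direction. The 8 were Irf1, Bst2, Parp14, Trim30a, Gbp2, Gbp3, Gbp7 and Igtp. The fibroblasts of the groups sat largely in different sub-clusters. Of 22 sub-clusters 12 were at least 80% vehicle cells and held 87.9% of the vehicle fibroblasts, and 5 were at least 80% treated cells and held 71.5% of the treated ones. Cluster 12 held 868 cells of vehicle 2 and under 10 of any other mouse. The part of this split in the values was not tested. Bst2 (tetherin), which holds budding virus particles at the cell surface, was at 75.8, 88.0 and 83.1 CPM in vehicle 1 to 3 and at 134, 158 and 157 CPM in treated 1 to 3. The vehicle mice lay close together and under every treated mouse. Its log2 fold change was 0.71 ± 0.16 (SE) with an adjusted p of 0.194 by edgeR's quasi-likelihood test, and 0.70 with an adjusted p of 0.0242 by DESeq2. Gbp2 was at 8.86, 13.8 and 16.9 CPM in vehicle mice and at 21.5, 24.8 and 31.3 CPM in treated mice. Its groups did not overlap, and its log2 fold change was 0.78 ± 0.25 (adjusted p = 0.256, edgeR). Gbp7 was at 2.95, 13.2 and 14.2 CPM against 21.5, 24.3 and 21.2 CPM, with vehicle 1 the lowest (0.85 ± 0.37, adjusted p = 0.326, edgeR). Igtp was at 2.95, 5.38 and 4.65 CPM against 5.76, 9.16 and 7.13 CPM, where vehicle 2 and treated 1 nearly met (0.54 ± 0.30). Irf1, a factor induced by both interferons, was at 8.86, 25.3 and 22.4 CPM against 35.9, 35.2 and 30.9 CPM. Other members did not share this order. Irgm1, an immunity-related GTPase that controls the others, was at 13.8, 9.63 and 7.24 CPM against 11.5, 12.4 and 11.4 CPM, and Isg15 at 24.6, 55.0 and 63.0 CPM against 57.6, 83.2 and 32.7 CPM. Isg15, Ifit3, Irf7 and Irgm1 overlapped, with log2 fold changes of 0.11 ± 0.41, 0.95 ± 0.79, 0.89 ± 0.53 and 0.15 ± 0.28. The summed fibroblast markers of this class ran from 28959 to 35292 CPM in vehicle mice and from 40103 to 42462 CPM in treated mice, and the summed macrophage markers from 823 to 1635 and from 1458 to 2045 CPM. Their part in these values was not tested.

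**Figure D3:**
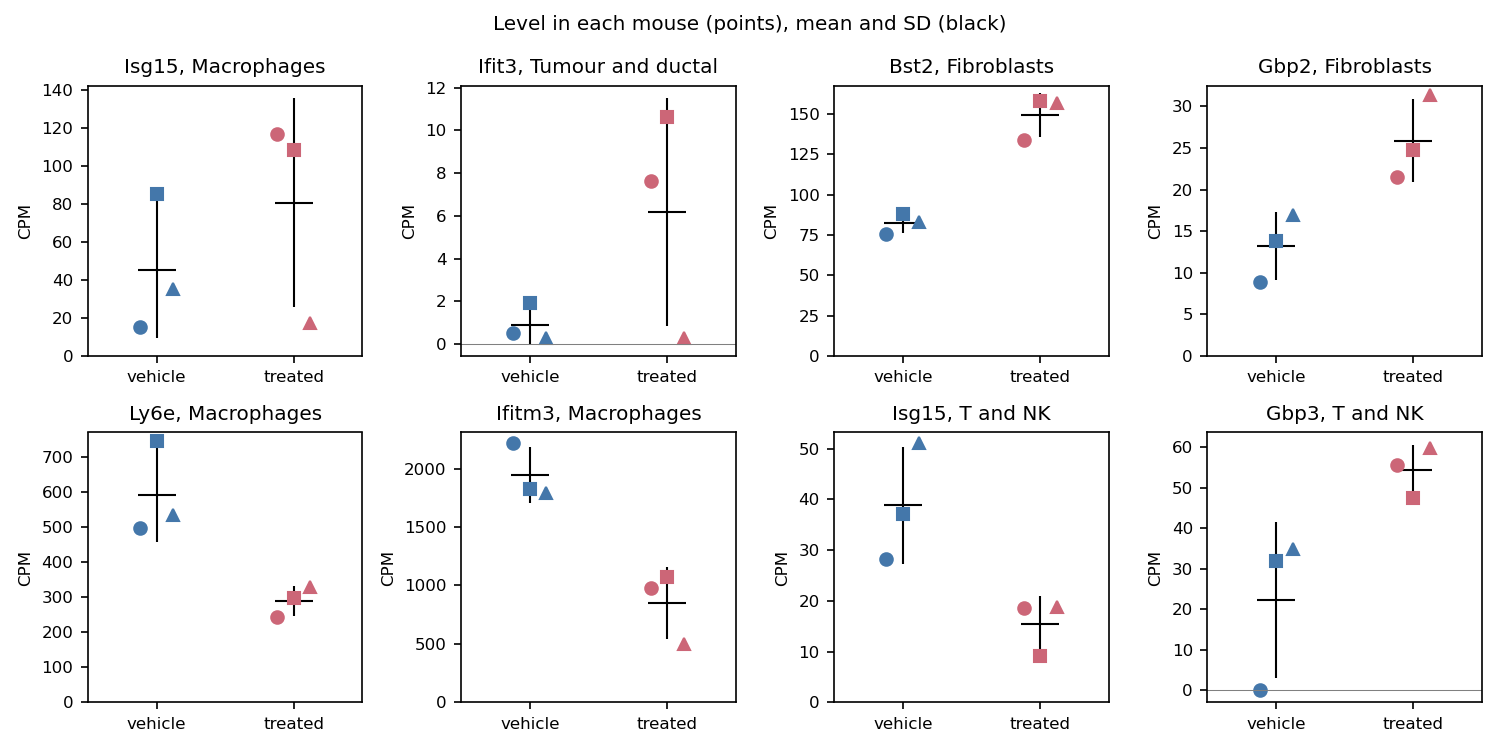
CPM (linear axis) of selected members in the 3 vehicle and 3 treated mice (points) in the class named above each panel, with group means and SDs in black. Bst2 and Gbp2 in fibroblasts, Ly6e and Ifitm3 in macrophages and Isg15 and Gbp3 in T and NK lymphocytes do not overlap between groups, whereas Isg15 in macrophages and Ifit3 in tumour cells do.

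In macrophages, the largest immune class, 2 of 37 members did not overlap between groups, with 17.3% of all genes tested not overlapping. Ly6e was at 498, 745 and 535 CPM in vehicle mice and at 245, 297 and 329 CPM in treated mice, so every treated mouse was under every vehicle mouse. The macrophages of the groups sat largely in different sub-clusters. Of 35 sub-clusters 14 were at least 80% vehicle cells and held 84.2% of the vehicle macrophages, and 16 were at least 80% treated cells and held 80.0% of the treated ones. Cluster 2 held 1830 cells of treated 3, and cluster 3 held 2430 of vehicle 3. The part of this split in the values of macrophages was not tested. The log2 fold change of Ly6e was −0.995 ± 0.220 with an adjusted p of 0.170 by edgeR's quasi-likelihood test, and −0.999 with an adjusted p of 0.000620 by DESeq2. Ifitm3, a membrane protein that blocks virus fusion, was at 2222, 1823 and 1790 CPM against 980, 1077 and 496 CPM. It too did not overlap (−1.18 ± 0.37, adjusted p = 0.307, edgeR). The macrophage class also held monocytes, and 5 monocyte genes were looked up after the values of Ly6e and Ifitm3 were seen. They did not share 1 direction, and none passed the test. Ly6c2, a monocyte surface protein, was at 95.2, 84.7 and 49.7 CPM in vehicle mice and at 10.4, 6.42 and 10.6 CPM in treated mice (−3.05, adjusted p = 0.0667, edgeR). Plac8 was at 338, 472 and 344 CPM against 40.8, 64.0 and 62.4 CPM (−2.76, adjusted p = 0.0583, edgeR). Both lay lower in every treated mouse. Chil3 had the other sign, at 887, 277 and 237 CPM against 1342, 546 and 13370 CPM, with treated 3 far above the others (3.30 ± 1.31, adjusted p = 0.464, edgeR). Ccr2 (−0.79 ± 0.40) and F13a1 (−0.52 ± 0.53) overlapped. The macrophage genes C1qa, C1qb, C1qc, Apoe and Mrc1 had log2 fold changes of 0.07, 0.13, 0.14, 0.53 and 0.07. The part of monocytes in the values of Ly6e and Ifitm3 was not tested.

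The other macrophage members split by mouse and not by group. Isg15 was at 15.4, 85.4 and 35.1 CPM in vehicle mice and at 116, 108 and 17.4 CPM in treated mice. Treated 1 and 2 were the highest of the 6 and treated 3 was next to the lowest (0.94 ± 0.78). Ifit3, a protein that binds foreign RNA together with Ifit1, was at 2.09, 10.3 and 2.91 CPM against 16.8, 21.5 and 0.455 CPM, with the same order at both ends of the treated group (1.35 ± 1.22). Irf7, the factor that amplifies type I interferon production, was at 19.2, 68.2 and 20.6 CPM against 49.1, 69.3 and 4.32 CPM (0.27 ± 0.94). Of the interferon gamma members Gbp2 (−0.14 ± 0.53), Igtp (−0.06 ± 0.36) and Irgm1 (0.04 ± 0.36) were near 0. Bst2 was at 155, 144 and 86.1 CPM against 212, 182 and 52.7 CPM (0.24 ± 0.53). Gbp5, which has 17.1 CPM ± 6.87 in treated and 6.15 ± 4.67 in vehicle mice, overlapped (1.42 ± 0.57, adjusted p = 0.447, edgeR).

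In tumour cells treated 1 and 2 differed from treated 3. The SD of the log2 ratio over genes was 0.22 between treated 1 and 2. It was 0.819 between treated 1 and treated 3, 0.926 between treated 2 and treated 3, and 0.662 between vehicle 2 and treated 3. Ifit3 was at 0.516, 1.93 and 0.288 CPM in vehicle mice and at 7.63, 10.6 and 0.298 CPM in treated mice. Treated 1 and 2 lay above all vehicle mice, and treated 3 lay among them. The log2 fold change was 2.48 ± 1.25, with a 95% interval of −0.52 to 5.48 and an adjusted p of 0.494 by edgeR's quasi-likelihood test. Bst2 was at 79.6, 31.0 and 30.02 CPM against 318, 249 and 17.95 CPM, again with treated 3 the lowest (1.75 ± 0.94). Isg15 was at 3.32, 7.77 and 0.779 CPM against 18.9, 16.6 and 0.893 CPM (1.37 ± 1.13). Usp18, the protease that removes Isg15 and restrains the type I receptor, was at 0.516, 1.81 and 0.288 CPM against 7.72, 7.64 and 1.43 CPM (2.40 ± 0.91, adjusted p = 0.431, edgeR). Each of these overlapped between groups. Of 36 members 3 did not overlap, with 23.0% of all genes tested not overlapping. Irf1, Irf9 and Stat2 were higher in every treated mouse. Stat2 was at 5.38, 8.01 and 2.54 CPM against 8.198, 8.58 and 8.96 CPM, a gap smaller than the range of the vehicle mice (0.42 ± 0.41). Irf9 was at 11.4, 14.5 and 3.82 CPM against 22.5, 24.4 and 15.8 CPM (0.81 ± 0.44, adjusted p = 0.512, edgeR). Irf7 (−0.30 ± 0.77), Gbp2 (0.51 ± 0.90), Igtp (0.05 ± 0.73) and Irgm1 (−0.46 ± 0.95) overlapped. The summed epithelial markers of this class also varied by mouse, from 4682 to 17384 CPM in vehicle and from 3880 to 15104 CPM in treated mice, with treated 3 the highest treated mouse. Of 62 tumour sub-clusters 42 held at least 80% of their cells from 1 library. By group, 38 were at least 80% vehicle cells and held 96.65% of the vehicle tumour cells. Another 19 were at least 80% treated cells and held 88.87% of the treated ones. Cluster 31 held 1111 cells of treated 1 and 1594 of treated 2, against 14 of treated 3 and 0 to 3 of each vehicle mouse. The part of the marker levels or of this split in these values was not tested.

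**Figure D4:**
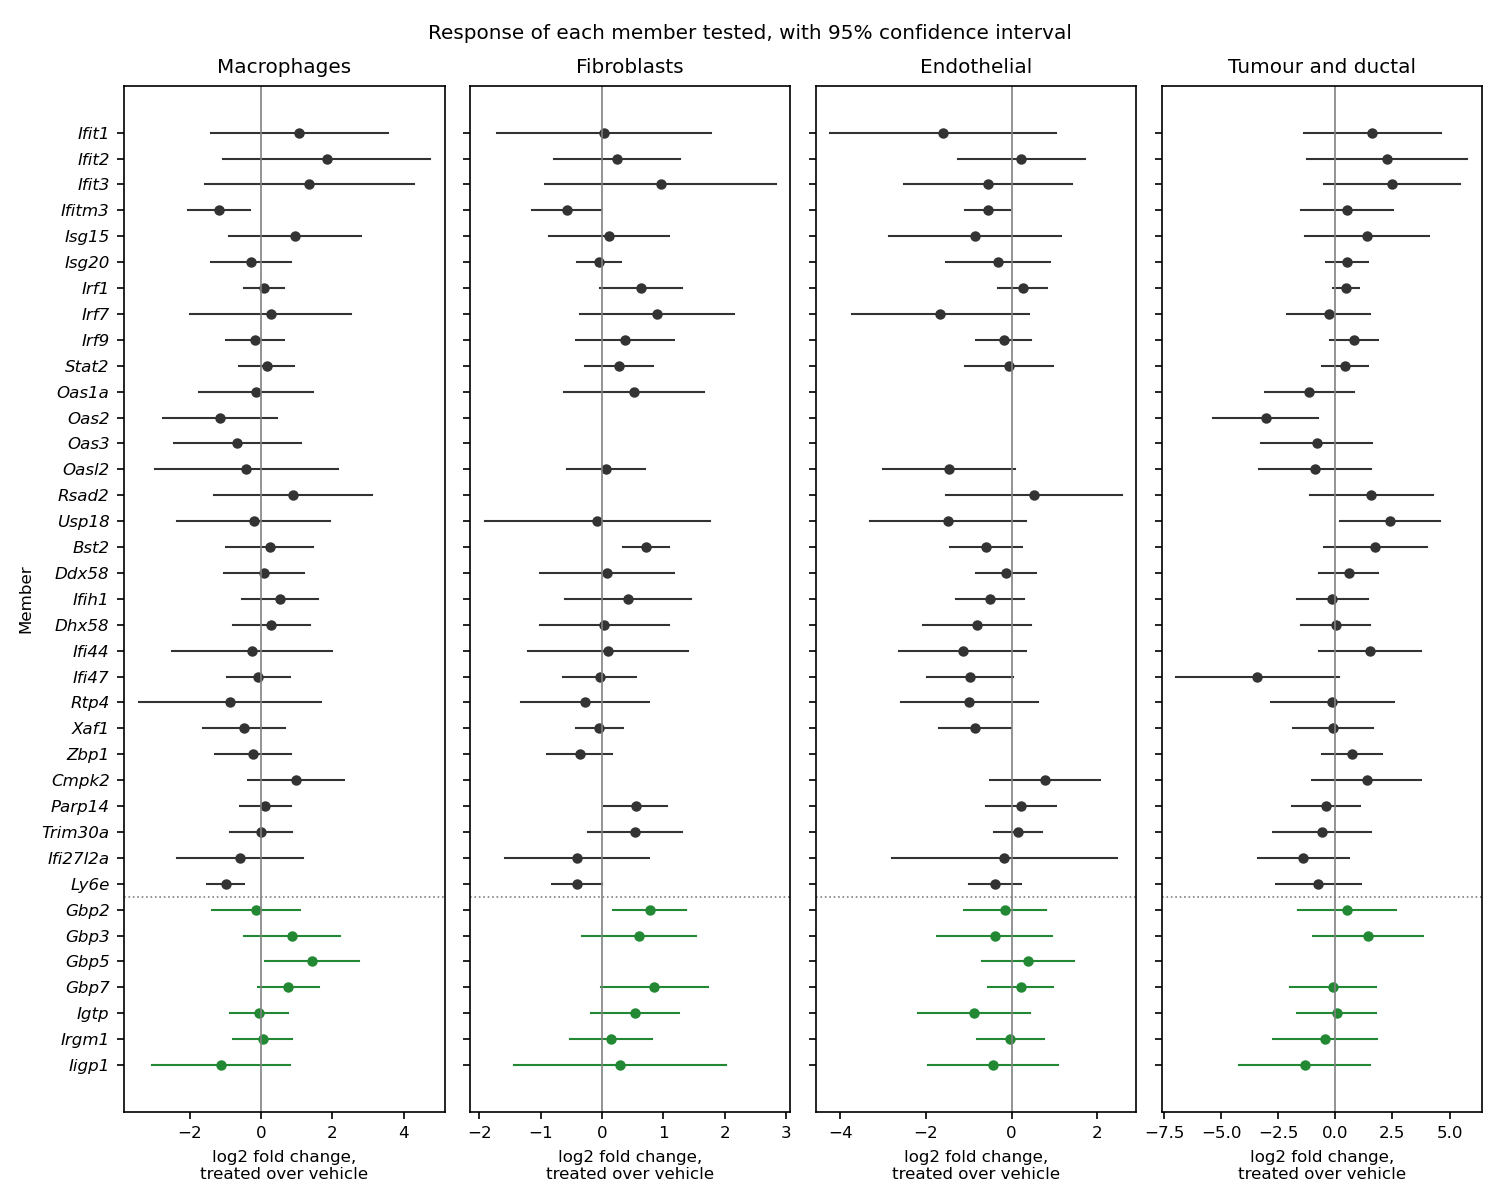
Log2 fold change of treated over vehicle for each tested member (points, with 95% confidence intervals) in macrophages, fibroblasts, endothelial cells and tumour cells, with type I members in black, interferon gamma members in green and a vertical line at 0; the horizontal axes differ between panels. The intervals of tumour cells are the widest, and the interferon gamma members of fibroblasts all lie above 0.

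T and NK lymphocytes, the source of interferon gamma, had 5 of 17 members without overlap, with 9.97% of all genes tested not overlapping. Ifitm3, Isg15, Xaf1 and Zbp1 lay lower and Gbp3 higher in every treated mouse. Isg15 was at 28.3, 37.2 and 51.1 CPM in vehicle mice and at 18.5, 9.05 and 18.8 CPM in treated mice. The groups did not overlap, but the vehicle 1 value rests on 2 UMIs (−1.29 ± 0.40, adjusted p = 0.697, edgeR). Ifitm3 was at 42.4, 86.8 and 53.8 CPM against 13.2, 22.6 and 36.9 CPM (−1.25 ± 0.37, adjusted p = 0.522, edgeR). Xaf1, a protein that promotes apoptosis, was at 56.5, 33.7 and 26.9 CPM against 13.2, 13.6 and 13.2 CPM (−1.26 ± 0.45, adjusted p = 0.958, edgeR). Both had every treated mouse under the lowest vehicle mouse. Their vehicle 1 and treated 1 values also rest on few UMIs, from class totals of 70789 and 377981 UMIs. Gbp3 was at 0, 31.9 and 34.9 CPM against 55.6, 47.5 and 59.9 CPM (0.94 ± 0.38, adjusted p = 0.999, edgeR), and the 0 of vehicle 1 comes from 42 cells with 70789 UMIs. Bst2 (−0.41 ± 0.37) and Igtp (0.13 ± 0.34) overlapped, and Ifit3, Irf7, Gbp2 and Irgm1 did not pass the filter. Summed neutrophil markers in this class were at 6399, 56.7 and 392 CPM in vehicle mice and 13.2, 11.3 and 71.0 CPM in treated mice. These sums overlapped between groups, with vehicle 2 under the highest treated mouse, and 1 to 9 of the 12 markers were at 0. Vehicle 1, with the highest sum, was the lowest vehicle mouse for Isg15 and Ifitm3 and the highest for Xaf1, on few UMIs. In the neutrophils of vehicle 1 to 3 Isg15 was at 29.5, 394 and 193 CPM and Ifitm3 at 636, 442 and 1174 CPM. Xaf1 was at 3.425, 13.5 and 11.05 CPM in the same neutrophils. The part of neutrophil RNA in the values of T and NK lymphocytes was not tested.

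In endothelial cells and neutrophils no member was called, and single mice lay far from the others of their group. In endothelial cells 1 of 33 members did not overlap, with 27.6% of all genes tested not overlapping. That member was Ifitm3, at 2221, 3278 and 2155 CPM in vehicle mice and at 2041, 1870 and 1667 CPM in treated mice (−0.56 ± 0.24, adjusted p = 0.227, edgeR). Irf7 was at 25.0, 80.2 and 7.10 CPM against 19.0, 11.8 and 10.5 CPM, with vehicle 2 above all other mice. Its log2 fold change was −1.66 ± 0.84 (adjusted p = 0.345, edgeR), and without vehicle 2 it was 0.39. Isg15 was at 12.5, 191 and 28.9 CPM against 69.2, 57.3 and 33.9 CPM, again with vehicle 2 at the top (−0.86 ± 0.80, and 0.85 without vehicle 2). Iigp1, the GTPase most abundant in this class, was at 18.7, 186 and 41.7 CPM against 75.5, 95.3 and 54.5 CPM. Ifit3 (−0.56 ± 0.86), Bst2 (−0.60 ± 0.37), Gbp2 (−0.15 ± 0.42), Igtp (−0.87 ± 0.58) and Irgm1 (−0.03 ± 0.36) overlapped as well. In neutrophils 0 of 33 members were without overlap, with 8.62% of all genes tested not overlapping. Of 16 neutrophil sub-clusters 13 held at least 80% of their cells from 1 library. By group, 11 were at least 80% vehicle cells and held 91.3% of the vehicle neutrophils. Another 4 were at least 80% treated cells and held 71.55% of the treated ones. The part of this split in the values of neutrophils was not tested. Rsad2 was at 4.28, 125 and 56.0 CPM in vehicle mice and at 82.3, 163 and 6.45 CPM in treated mice. Isg15 was at 29.5, 394 and 193 CPM against 167, 222 and 27.5 CPM (−0.61 ± 0.83). Vehicle 1 and treated 3 were the lowest mice for both genes. The other named members had log2 fold changes of −0.14 ± 1.04 (Ifit3), −0.62 ± 0.54 (Irf7), −0.52 ± 0.52 (Bst2), −0.45 ± 0.83 (Gbp2), 0.28 ± 0.67 (Igtp) and −0.26 ± 0.50 (Irgm1).

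Conventional dendritic cells, which present antigen to T cells, could be compared in 3 vehicle and 2 treated mice, since treated 1 had 13 such cells. Of the 8 members that passed the filter 4 did not overlap, with 26.7% of all genes tested not overlapping. Ifitm3 was at 1571, 2414 and 2171 CPM in vehicle mice and at 979 and 809 CPM in treated 2 and 3 (−1.29 ± 0.46, adjusted p = 0.593, edgeR). Ly6e was at 503, 520 and 406 CPM against 206 and 258 CPM (−1.17 ± 0.42, adjusted p = 0.593, edgeR). Ifi27l2a, an interferon-induced membrane protein, was at 149, 399 and 371 CPM against 133 and 116 CPM (−1.35 ± 0.43, adjusted p = 0.577, edgeR). Irf1 was the fourth and lay higher in the treated mice. The first 3 lay under every vehicle mouse in both treated mice, on 17 to 147 UMIs per treated mouse. Bst2 overlapped (−0.25 ± 0.47). Without vehicle 1, Ifitm3 and Ifi27l2a passed the test, with adjusted p of 0.0269 and 0.0220 (edgeR). The share of all genes that passed in that fit was not computed. In B lymphocytes 2 members passed the filter and 0 were without overlap, with 9.26% of all genes tested not overlapping.

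Summed over all kept cells, 7 of 37 members did not overlap, with 23.0% of all genes tested not overlapping. At an unadjusted p under 0.05 there were 3 members (10.9% of all genes), and edgeR's quasi-likelihood test called 0 at an adjusted p under 0.05 (0.0% of 17486 genes). DESeq2 called 0 members (2.58%). Gbp3, Gbp5, Gbp7, Igtp, Irf1 and Cmpk2 lay higher in every treated mouse, and Oas3 lower. The median log2 fold change was 0.67 over the 7 interferon gamma members (0.36 with Irf1 and Ifi47 among them) and 0.20 over the 30 type I members, against −0.019 over all genes. Bst2 averaged 205 CPM ± 111 in treated and 63.2 ± 19.95 in vehicle mice and overlapped (1.39 ± 0.50, adjusted p = 0.429, edgeR). Isg15 (0.25 ± 0.38), Ifit3 (1.58 ± 0.96), Irf7 (−0.01 ± 0.42), Gbp2 (0.67 ± 0.46) and Irgm1 (−0.28 ± 0.57) overlapped, and Igtp (0.14 ± 0.32) did not. In these sums a shift in cell make-up and a change within cells cannot be told apart. Tumour cells made up 35.3%, 39.7% and 25.4% of kept cells in vehicle mice and 41.4%, 41.5% and 13.7% in treated mice, and macrophages 22.2%, 16.7% and 30.4% against 20.5%, 20.9% and 42.3%.

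Whether a member responded differently in another class than in macrophages was tested with a class by treatment term in edgeR. Ly6e in T and NK lymphocytes was the 1 member that passed, with a log2 fold change 0.98 ± 0.24 higher than in macrophages (adjusted p = 0.0279, edgeR), where 0.855% of all genes passed. Ly6e in T and NK lymphocytes was at 706, 792 and 858 CPM in vehicle mice and at 765, 661 and 780 CPM in treated mice, with overlap, beside the lower values of treated macrophages. Leaving out 1 mouse at a time gave a difference of 0.84 to 1.17 with an adjusted p of up to 0.315 (edgeR). It lost the call without vehicle 2 and without treated 1. No member passed in tumour cells (0.0% of all genes), fibroblasts (0.0510%), endothelial cells (0.0691%), neutrophils (0.0%) or B lymphocytes (1.03%). At an unadjusted p under 0.05 there were 5 of 37, 6 of 37, 2 of 37, 3 of 37 and 5 of 34 members in these classes. The share of all genes at that unadjusted threshold was not computed for this term. DESeq2 was not run on this term.

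The share of cells with UMIs of type I members was counted after every cell was thinned to 1000 UMIs, since treated cells were deeper. A cell was counted when it held at least 3 UMIs of type I members other than Ly6e, Ifitm3, Bst2 and Ifi27l2a, which are abundant in cells without interferon. Irf1 and Ifi47, which also respond to interferon gamma, were kept in this count. Neutrophils had 3.29%, 20% and 16.2% in vehicle mice and 12.4%, 15.7% and 10.2% in treated mice. These rest on the deeper cells, since thinning left out 105 of 500, 653 of 893 and 1589 of 2625 vehicle neutrophils, against 12 of 367, 12 of 260 and 17 of 852 treated ones. Without thinning the neutrophil shares were 11.2%, 23.3% and 18.5% against 25.1%, 30% and 36.9%. Macrophages had 1.18%, 11.7% and 4.95% against 6.46%, 9.34% and 0.644%. Endothelial cells had 5.56%, 14.9% and 2.67% against 5.29%, 1.51% and 2.67%, and tumour cells 0.141%, 0.517% and 0.0781% against 0.960%, 1.18% and 0.261%. Fibroblasts had 2.50%, 1.30% and 0.952% against 1.80%, 1.96% and 0.939%. Groups overlapped in each of these classes. In T and NK lymphocytes the shares were 1 of 24, 12 of 253 and 5 of 145 cells in vehicle mice (4.12% ± 0.65, SD, n = 3) and 0 of 92, 1 of 112 and 2 of 358 cells in treated mice (0.48% ± 0.45). These did not overlap, and the two-sided exact permutation test gave p = 0.1, the smallest that 3 against 3 mice allow (adjusted p = 0.7 over the 7 classes). Without thinning the T and NK order was the opposite, 4.76%, 14.1% and 9.17% against 22.1%, 25.9% and 21.1%, at median depths of 1171 to 1738 and 3146 to 3360 UMIs. Thinning left out 18, 31 and 95 shallower vehicle T and NK cells and 3, 4 and 12 treated cells. No free-RNA background was subtracted from these shares.

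**Figure D5:**
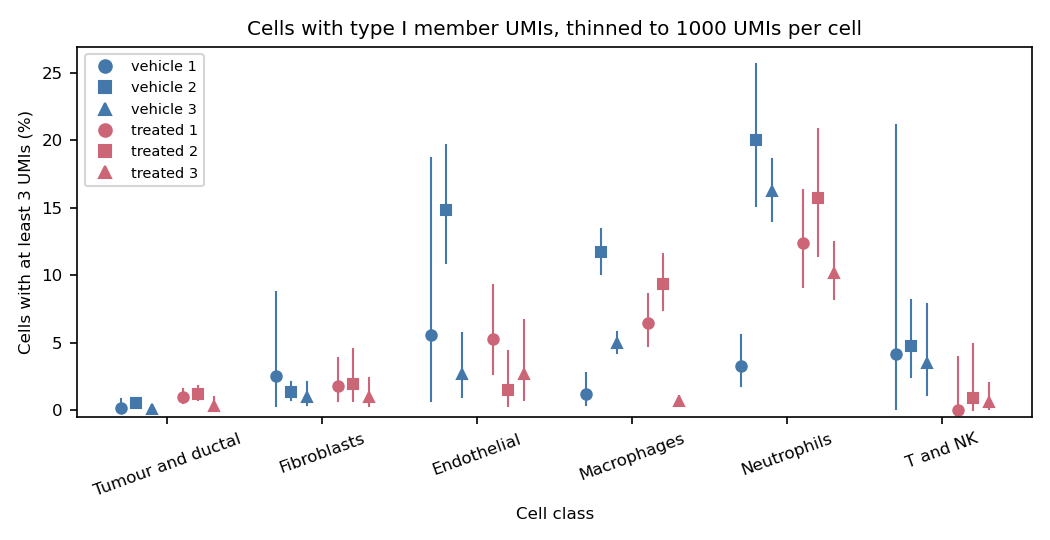
Percent of cells with at least 3 UMIs of type I members after thinning to 1000 UMIs, in 6 classes; each point is 1 mouse, with its 95% exact binomial interval, which covers counting error only. The 3 vehicle points of T and NK lymphocytes lie above the 3 treated points, and in the other classes shown the groups overlap.

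Genes upstream and beside the members were examined in the same fits. Of the interferon ligands, Ifnb1 passed the filter in no class, with 0 to 12 UMIs per mouse in all kept cells and 0 to 12 in macrophages. Ifng passed in T and NK lymphocytes, at 0, 28.3 and 5.38 CPM in vehicle mice and 26.5, 24.9 and 6.27 CPM in treated mice, with overlap (−0.06 ± 0.70). These values rest on 0 to 16 UMIs per mouse. Of 9 receptors and kinases 8 were tested in macrophages, fibroblasts, endothelial cells, neutrophils and T and NK lymphocytes and 9 in tumour cells, and 0 rose or fell by edgeR. Ifnar1 had log2 fold changes of −0.01 ± 0.27 in macrophages, −0.02 ± 0.15 in fibroblasts and 0.15 ± 0.22 in tumour cells. Ifngr1 had −0.36 ± 0.22, −0.13 ± 0.19 and −0.29 ± 0.47 in the same classes and 0.77 ± 0.41 in neutrophils (adjusted p = 0.811, edgeR). The factors, brakes and nucleic acid sensors held 0 called genes in each of these 6 classes.

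Among 43 other type I targets, 1 of the 17 tested in T and NK lymphocytes fell and 0 rose by edgeR. This was Ifitm1, a relative of Ifitm3, at 297, 77.9 and 99.5 CPM in vehicle mice and 2.65, 4.53 and 6.27 CPM in treated mice. All treated mice lay far under all vehicle mice (−4.47 ± 0.61, adjusted p = 0.0111, edgeR's quasi-likelihood test; 7.44e-09 by DESeq2). Without 1 mouse at a time the log2 fold change ran from −4.91 to −3.97, with an adjusted p of up to 0.0598 (edgeR), and the call was lost without treated 2. Ifitm1 was at 1296 to 8421 CPM in neutrophils, whose summed markers in T and NK lymphocytes were given with the members of that class. The part of neutrophil RNA in this value was not tested. In macrophages Ifitm1 was at 224, 460 and 852 CPM against 74.4, 113 and 31.2 CPM (−2.73 ± 0.58, adjusted p = 0.166 by edgeR, 6.21e-05 by DESeq2), without overlap. In tumour cells it was at 49.5, 7.57 and 57.9 CPM against 0.820, 1.07 and 4.55 CPM (−4.55 ± 1.09, adjusted p = 0.430 by edgeR, 2.97e-04 by DESeq2), also without overlap. DESeq2 also called Ifitm2 of the same family in macrophages (−0.91, adjusted p = 0.000170), where edgeR gave −0.91 ± 0.21 (adjusted p = 0.184). The 24 other interferon gamma targets held 0 called genes by edgeR in any class, with 12 tested in fibroblasts at a median of 0.39 and 17 tested in macrophages at a median of 0.33. DESeq2 called Gbp2b, a guanylate-binding protein, in fibroblasts (1.48, adjusted p = 0.0329) and Cd274, the checkpoint ligand, in macrophages (1.36, adjusted p = 0.0418).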

How the data were processed

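Single-cell RNA libraries of 6 pancreatic tumours were used, with the groups taken from the labels. The deposited values are raw UMI counts per gene and barcode, made by the authors with Cell Ranger 5.0.1 on mm10, per the submitters' processing notes. Barcodes were dropped under 500 UMIs, under 250 detected genes or above 20% mitochondrial UMIs. Scrublet's own threshold marked under 1% of cells, so the highest scores were removed at 0.8% per 1000 barcodes (2926 doublets). Cells were clustered with scanpy 1.11.5 and named where at least 3 markers passed. Raw counts were summed per mouse and class (at least 20 cells) and tested with edgeR 4.0.16 (R 4.3.3; TMM, filterByExpr, robust quasi-likelihood test, two-sided, Benjamini-Hochberg over all genes, threshold 0.05), with DESeq2 1.42.0 as an alternative. The replicates are separate mice. The members and lists were chosen with earlier results of these data known.

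Members were named by this rule: in each class those past the threshold, those without overlap whose log2 fold change reached 1 in size and whose average log2 CPM reached 5, and Isg15, Ifit3, Irf7, Bst2, Gbp2, Igtp and Irgm1. Every member was named with its highest class. Of the pathway lists, called genes, Ifngr1, Ifnar1, Ifng and Ifnb1 were named; another gene of the rule and 1 allele of the mice are not reported here. Other members were named after their values were seen. The doses and the collection time are those of the labels. In simulated counts with known changes, the test recovered 82.7% of 4-fold and 8.42% of 2-fold changes in macrophages (11314 genes), 88.3% and 24.7% in endothelial cells (9873 genes), and 0% of either in tumour cells (15016 genes). Other settings tried were a replicate block, DESeq2, cells with at least 2000 UMIs, doublets kept, clustering without the listed genes, treated 1 and 2 summed, and leaving out each mouse. Shares used scipy 1.17.1. The exact binomial intervals of the shares cover counting error only. Those of the log2 fold changes come from edgeR's standard errors, which include the spread between mice.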

Additional observations from a re-analysis of the deposited data

Results flagged for a closer look

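The response of Ly6e passed the test of a difference between T and NK lymphocytes and macrophages, but not with every mouse left out. The log2 fold change of treated over vehicle mice was 0.98 ± 0.24 higher in T and NK lymphocytes, with an adjusted p of 0.0279 by edgeR's class by treatment term. Ly6e averaged 592 CPM ± 134 in macrophages of vehicle mice and 290 ± 42.5 in those of treated mice (SD, n = 3), and its T and NK values overlapped. It was the 1 member to pass among the 6 classes compared with macrophages, where 0.855% of all genes passed in T and NK lymphocytes. Without 1 mouse the adjusted p was up to 0.315 (edgeR), and the call was lost without vehicle 2 and without treated 1. Of 5 monocyte genes in the same macrophages, Ly6c2 (−3.05) and Plac8 (−2.76) lay lower in every treated mouse, Chil3 had 3.30, and Ccr2 (−0.79) and F13a1 (−0.52) overlapped. Their part in the difference was not tested.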

How the results depend on the processing

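Each result was recomputed under other settings, 1 choice at a time. edgeR's count of called members stayed at 0 in every class under each setting except in conventional dendritic cells, where it was 2 with the replicate block and 0 to 2 without 1 mouse. The share of all genes called in those fits of dendritic cells was not computed. DESeq2 called 1 member in fibroblasts and 1 in macrophages. The labels pair no mice by number. The correlation of same-numbered deviations was above 0.1 for all 3 numbers in no class. It was 0.0932, 0.12 and 0.124 in macrophages and 0.0183, 0.359 and 0.058 in neutrophils. With 3 mice per group these correlations cannot exclude a pairing. With the replicate block, the block changed the sign of the log2 fold change of Irf7 in all kept cells (0.0706), macrophages (−0.2389) and tumour cells (0.0943) and of Irgm1 in all kept cells (0.0315), endothelial cells (0.0327), macrophages (−0.0275) and tumour cells (0.4219). In conventional dendritic cells the block leaves vehicle 1 without a partner.

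Other sign changes were of fold changes or differences that did not pass the test. They were Irgm1 in endothelial cells with DESeq2 (0.0271), doublets kept (0.2509) and the lists left out of clustering (0.0253). With cells of at least 2000 UMIs they were Irf7 in all kept cells (0.0678) and Igtp in T and NK lymphocytes (−0.3162). With treated 1 and 2 summed they were Isg15 in fibroblasts (−0.0724), Igtp in tumour cells (−0.0169), and Irf7 (−0.0801), Bst2 (−0.0041) and Irgm1 (−0.1012) in macrophages. With doublets kept they were also Irgm1 in macrophages (−0.0351), Ifit3 in neutrophils (0.1322) and Irf7 in tumour cells (0.1078), and with the lists left out of clustering Isg15 in fibroblasts (−0.1824) and Irf7 in tumour cells (0.1316). The difference in the percent of cells with type I UMIs changed sign with at least 5 UMIs in all kept cells (0.0694), fibroblasts (0.223), macrophages (0.4208) and neutrophils (0.334), and was 0 in B lymphocytes. It changed sign with at least 2 UMIs in fibroblasts (1.871) and neutrophils (1.484), and when thinned to 2000 UMIs in fibroblasts (0.2954) and neutrophils (1.641). The cause of these changes was not tested.

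Leaving out 1 mouse at a time gave these ranges of the log2 fold change. Bst2 ran from −0.60 to 0.0799 in conventional dendritic cells, −0.95 to 0.0105 in endothelial cells, −0.12 to 0.66 in macrophages and −0.90 to 0.19 in T and NK lymphocytes. Gbp2 ran from −0.59 to 0.84 in endothelial cells and −0.44 to 0.25 in macrophages. Ifit3 ran from −1.32 to 2.40 in endothelial cells and −0.65 to 1.41 in neutrophils. Igtp ran from −0.0102 to 0.26 in all kept cells, −1.38 to 0.55 in endothelial cells, −0.28 to 0.29 in macrophages, −0.23 to 0.63 in neutrophils, −0.0357 to 0.37 in T and NK lymphocytes and −0.40 to 0.88 in tumour cells. Irf7 ran from −0.33 to 0.28 in all kept cells, −2.34 to 0.39 in endothelial cells, −0.32 to 1.001 in macrophages and −0.81 to 0.11 in tumour cells. Irgm1 ran from −0.68 to 0.55 in all kept cells, −0.46 to 0.75 in endothelial cells, −0.0468 to 0.38 in fibroblasts, −0.27 to 0.36 in macrophages and −0.996 to 1.14 in tumour cells. Isg15 ran from −0.0141 to 0.52 in all kept cells, −1.35 to 0.85 in endothelial cells and −0.26 to 0.40 in fibroblasts. In endothelial cells the upper end of each of these ranges is the value without vehicle 2.

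The type I median ran from −0.78 to 0.599 in endothelial cells and from −0.54 to −0.12 in T and NK lymphocytes, and the interferon gamma median of tumour cells from −0.499 (without vehicle 3) to 0.65 (without vehicle 1). Members with another response than in macrophages numbered 0 to 1 in B lymphocytes and 0 to 2 in T and NK lymphocytes. The share of all genes that passed in those fits was not computed. The difference in the percent of cells with type I UMIs ran from −1.03 to 0.29 in all kept cells, −0.475 to 2.02 in B lymphocytes, −0.334 to 0.44 in fibroblasts, −2.83 to 2.41 in macrophages and −5.34 to 3.01 in neutrophils. The macrophage and neutrophil ranges end at the values without vehicle 1 and without vehicle 2. Of the 88 results recomputed, 57 kept their direction under each setting run and 31 did not under at least 1. With 3 mice per group, the share of 2-fold changes that recovered in simulated counts was 0% to 24.7% in the 3 classes simulated.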

Other observations

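The 180 sub-clusters of the named classes with at least 20 cells were ranked by their summed type I members, other than the 4 abundant ones left out of the shares. The genes that define a sub-cluster include members, so these values are a description with no test. The highest was a macrophage sub-cluster of 65 cells at 7508 CPM, in which Rsad2 stood at 1136 CPM and Isg15 at 1160 CPM. It held 1, 12 and 41 cells of vehicle 1 to 3 and 7, 1 and 3 cells of treated 1 to 3. After thinning, 85.7% of its cells held at least 3 type I UMIs. Next came a neutrophil sub-cluster of 566 cells at 4634 CPM, with 504 cells from vehicle 2. A macrophage sub-cluster of 47 cells at 3887 CPM held 20 cells of treated 1 and 27 of treated 2, and no cell of another mouse. A tumour sub-cluster of 54 cells at 2303 CPM held 22 and 32 cells of the same mice. A neutrophil sub-cluster of 392 cells at 1706 CPM held 381 cells of vehicle 3. A sub-cluster that is mostly 1 library, or the pair treated 1 and 2, cannot be told apart from that library.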
